A study of Caenorhabditis elegans with 10 samples.

Results

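The aspartyl proteases described here are 10 members of the asp gene family of Caenorhabditis elegans, namely asp-1, asp-2, asp-3, asp-4, asp-5, asp-6, asp-8, asp-13, asp-14 and asp-17. They were taken by annotated gene symbol, and 9 of the 10 had a probe set with that symbol (12 of 22548 tested probe sets). No probe set carried the symbol asp-2, which was not analysed here. Whole-animal total RNA from mutants of mek-1 and of mlk-1, whose products act one after the other in a MAP kinase pathway of the JNK type, was labelled with biotin and read on 1-colour arrays. Fed animals had OP50-1 bacteria for the 2 days between transfer on adult day 2 and collection on adult day 4, and fasted animals had none. There were 3 arrays of mek-1 fed, 3 of mek-1 fasted, 2 of mlk-1 fed and 2 of mlk-1 fasted animals. All 10 arrays came from mutant animals whose alleles the labels do not name, and wild-type animals are not analysed here. The labels do not say whether replicates were separate cultures, so each p measures the spread between these samples, which may be technical.

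Aspartyl proteases of this family are related to pepsin and cathepsin D. They are made as inactive proenzymes, cut protein chains with a pair of catalytic aspartates, and work best in acid. In the worm the intestine is the organ that digests bacteria. Its cells secrete proteases into the gut lumen and also hold many acidic, lysosome-related granules. ASP-3 and ASP-4 are cathepsin D-like enzymes that take part in necrotic neuron death in C. elegans together with calpain proteases. ASP-1 is known as a protease of intestinal cells. Whole-animal RNA cannot show in which tissue a transcript lay, so the intestinal origin of the 9 genes could not be checked on these arrays.

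The arrays had median intensities of 70.5 to 74.9 and a common floor just above 16. The mek-1 probe set, which checks the mek-1 label, read 66.5 to 139.3 on the 6 mek-1 arrays and 1137.2 to 1386.5 on the 4 mlk-1 arrays. The mlk-1 probe set did not differ between strains (-0.19 ± 0.11 over food, adjusted p = 0.537), so the mlk-1 label could not be checked in this way. Both mek-1 arrays numbered 3 stood apart from the others on the second principal component, at -30.1 (fed) and -30.9 (fasted), while the other 8 lay between -10.5 and 23.8. Intensities below are the deposited linear values. Changes are differences of log2(intensity + 16) with limma's standard error (SE), and a call means a Benjamini-Hochberg adjusted p under 0.05 over all 22548 probe sets.

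The first question was how 2 days without food altered these transcripts. Averaged over both strains, 7 of the 9 genes fell and 0 rose, and all 9 values were negative. The falls ran from 11.8-fold for asp-17 to 1.21-fold for asp-6. The median of the 9 changes was -0.97, beside 0.04 over all tested probe sets. Of all probe sets 3.80% fell and 4.10% rose in the same comparison. For 5 of the 9 genes every one of the 5 fasted arrays lay below every one of the 5 fed arrays, as did 3.33% of all probe sets.

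The largest change belonged to asp-17, a family member for which no narrower role is given here. Its intensity was 1763, 1507 and 1222 on the mek-1 fed arrays and 143, 136 and 40.1 on the mek-1 fasted arrays. Fed mlk-1 animals gave 1025 and 866, and fasted ones 66.1 and 89.9. The fed and fasted arrays were thus far apart in both strains, and the lowest value of all was on mek-1 fasted 3. The mean fasting effect was -3.56 ± 0.28 (log2, SE; adjusted p = 1.5e-04, limma), the 15th lowest of 22548, and it passed under each of 23 alternative settings. Because a constant was added before the logarithm, the fold of this gene is understated where it neared the floor.

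The intestinal protease asp-1 read 7489, 6961 and 6209 on the mek-1 fed arrays and 2123, 1305 and 3211 on the mek-1 fasted arrays. In mlk-1 it read 8247 and 9485 fed and 1945 and 2077 fasted. Here too all fasted arrays were below all fed arrays. Within the mek-1 fasted group number 3 was the highest for asp-1 and the lowest for asp-17. The mean effect was -1.92 ± 0.21 (adjusted p = 9.1e-04), a fall of 3.80-fold.

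The cathepsin D-like pair also fell. For asp-3 the intensities were 3996, 3325 and 3784 (mek-1 fed), 1132, 1503 and 944 (mek-1 fasted), 5314 and 5446 (mlk-1 fed) and 1773 and 2332 (mlk-1 fasted). Its mean effect was -1.52 ± 0.13 (adjusted p = 2.8e-04). For asp-4 the leading probe set, the one with the highest mean, read 4490, 3864 and 3306 in mek-1 fed and 1627, 1520 and 1326 in mek-1 fasted animals. It read 3596 and 4464 in mlk-1 fed and 2714 and 2662 in mlk-1 fasted animals, with both mlk-1 fasted arrays above all mek-1 fasted arrays. The mean effect of asp-4 was -0.97 ± 0.11 (adjusted p = 8.8e-04), and its other probe set gave -0.75 ± 0.08 (adjusted p = 7.4e-04).

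**Figure D1:**
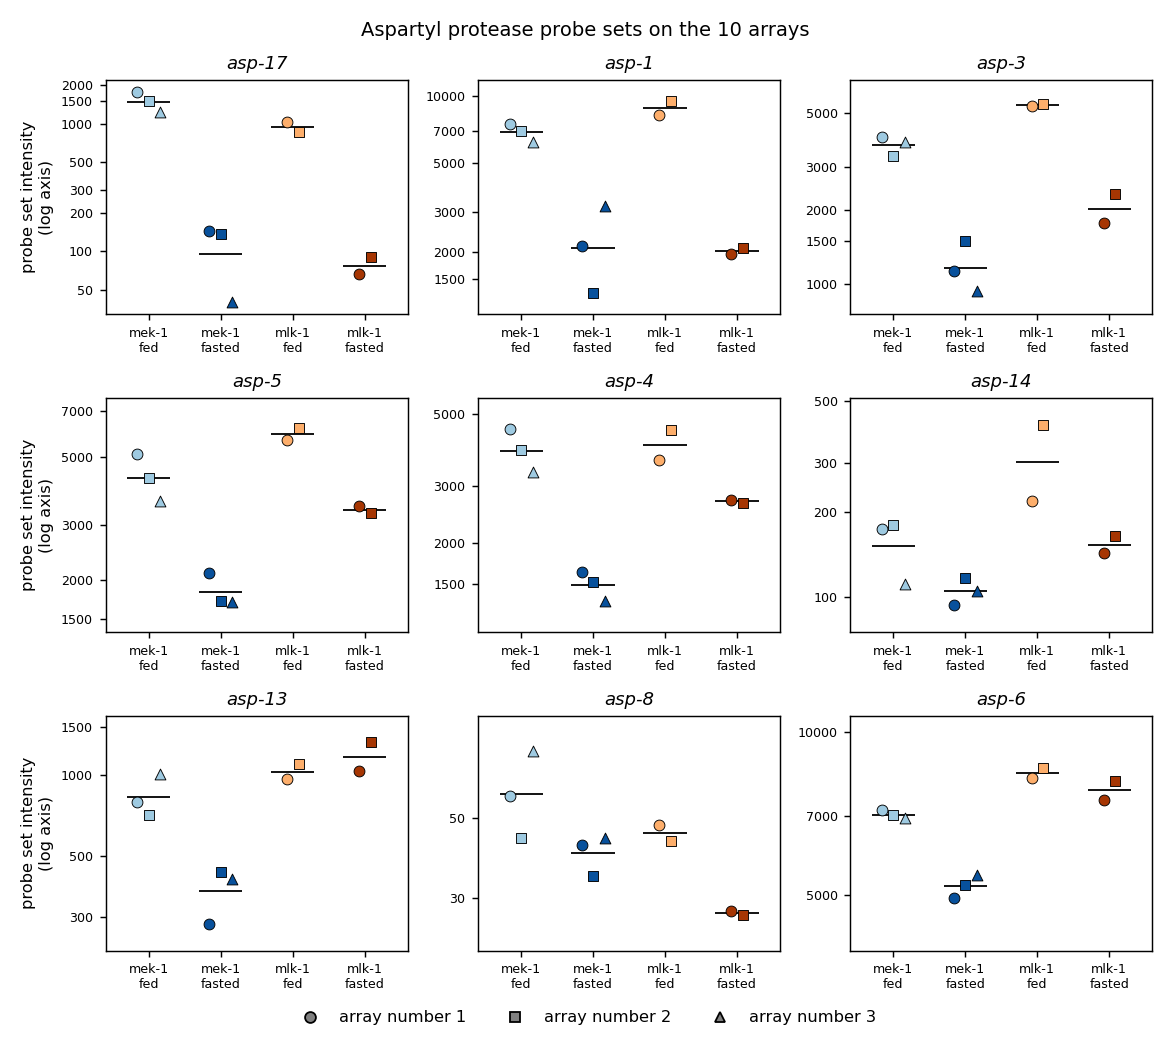
Intensity (log axis) of the leading probe set of each of the 9 genes on the 10 arrays, by strain and food, ordered by mean fasting effect; marker shapes give the array number and bars the group means on the log2 scale. The fasted arrays of asp-17, asp-1, asp-3, asp-5 and asp-4 all lie below the fed arrays, whereas for asp-13 only the mek-1 fasted arrays (282 to 439) are lower.

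The next 2 members, asp-5 and asp-6, lie close together on chromosome V, in the order asp-6, asp-12, asp-5 and the pseudogene asp-11 with 0 other genes between them (RefSeq, WBcel235). For asp-5 the values were 5112, 4264 and 3594 (mek-1 fed), 2114, 1712 and 1693 (mek-1 fasted), 5677 and 6197 (mlk-1 fed) and 3471 and 3284 (mlk-1 fasted). Its mean effect was -1.01 ± 0.11 (adjusted p = 8.3e-04), against -1.16 ± 0.11 (adjusted p = 5.4e-04) for its other probe set. For asp-6 the values were 7172, 7022 and 6941, then 4937, 5225 and 5446 in mek-1, and 8234 and 8582, then 7506 and 8147 in mlk-1 animals, fed before fasted. The mean effect of asp-6 was small, at -0.27 ± 0.06 (adjusted p = 0.0209), and its other probe set did not pass (-0.12 ± 0.06, adjusted p = 0.319). Probe sets of asp-4, asp-5, asp-6, asp-13 and asp-14 whose ID ends in _s_at can hybridise to several transcripts, so neighbouring family members may share signal.

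The remaining members were asp-8, asp-14 and asp-13. For asp-8 the intensity was 57.4, 44.0 and 76.3 in mek-1 fed and 42.0, 34.5 and 43.9 in mek-1 fasted animals, and 47.8 and 43.0 against 27.6 and 26.9 in mlk-1. Its mean effect was -0.45 ± 0.11 (adjusted p = 0.0452). For asp-14 the intensity was 174, 180 and 111 against 93.0, 116 and 105 in mek-1, where fed and fasted arrays overlapped, and 220 and 411 against 143 and 165 in mlk-1. Its mean effect was -0.69 ± 0.18 (adjusted p = 0.0524). For asp-13 the mean effect was -0.47 ± 0.15 (adjusted p = 0.0960). With the array number within strain as a block, asp-14 (adjusted p = 0.0104) and asp-13 (adjusted p = 0.0241) passed too, so that all 9 did, while 7.36% of all probe sets fell in that fit against 3.80% without the block.

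The calls of asp-6 and asp-8 depended on single arrays and on the added constant. With a constant of 1 or none, asp-6 did not pass (adjusted p = 0.0528 and 0.0574), and with a larger constant asp-8 did not (0.0790). The asp-6 call was lost without mek-1 fasted 1 (adjusted p = 0.0583), mek-1 fasted 2 (0.0539), mlk-1 fed 1 (0.0516), mlk-1 fed 2 (0.0782), mlk-1 fasted 1 (0.0864) or mlk-1 fasted 2 (0.0510). The asp-8 call was lost without mek-1 fed 1 (adjusted p = 0.0768), mek-1 fasted 1 (0.0925), mek-1 fasted 2 (0.0997), mek-1 fasted 3 (0.0525), mlk-1 fed 1 (0.143), mlk-1 fed 2 (0.104), mlk-1 fasted 1 (0.127) or mlk-1 fasted 2 (0.145). The asp-14 value passed under 11 of 22 alternatives, among them without mek-1 fed 3 (adjusted p = 0.0208), without mlk-1 fed 1 (0.0154), with a constant of 1 (0.0397) and after quantile normalization (0.0445). The calls of asp-17, asp-1, asp-3, asp-4 and asp-5 were kept under every alternative that could be fitted to them.

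Neighbours in the order of the mean fasting effect were compared by the difference of their log2 values within each array, with food labels exchanged within strains. The fall of asp-17 exceeded that of asp-1 by 1.63 (log2; exact permutation p = 0.0167, two-sided, which is the smallest p that 120 arrangements allow; adjusted p = 0.133 over 8 neighbouring pairs). The fall of asp-3 exceeded that of asp-5 by 0.51 (exact permutation p = 0.05, adjusted p = 0.200). The other 6 pairs had exact p-values from 0.233 to 0.967. With 8 pairs and this smallest p, a single pair could not pass after adjustment, so the outcome of 0 of 8 says little. The pairs were also ordered by the effect compared, and the exchange took no account of array numbers.

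The next question was whether the response was alike in both strains. In mek-1 animals 7 of the 9 genes fell and in mlk-1 animals 3 did (3.23% and 0.852% of all probe sets fell). The genes that fell in mlk-1 were asp-17, asp-1 and asp-3. In mek-1 these and asp-4, asp-5, asp-6 and asp-13 fell. Fed and fasted groups did not overlap, with fasted below, for 8 of 9 genes in each strain, against 8.88% of probe sets in mek-1 and 16.3% in mlk-1.

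Changes of asp-17 were -3.76 ± 0.36 in mek-1 (adjusted p = 6.2e-04) and -3.36 ± 0.44 in mlk-1 (adjusted p = 0.00696). Those of asp-1 were -1.72 ± 0.27 (adjusted p = 0.00824) and -2.13 ± 0.32 (adjusted p = 0.0163), and those of asp-3 were -1.64 ± 0.17 (adjusted p = 9.5e-04) and -1.40 ± 0.21 (adjusted p = 0.0145). The 95% intervals of the difference between strains (mek-1 minus mlk-1) included 0 for these 3 genes, at -1.68 to 0.90 for asp-17, -0.54 to 1.36 for asp-1 and -0.85 to 0.36 for asp-3. With 2 arrays per group the mlk-1 calls were fragile, but fits without 1 mlk-1 array show this only in part. Such fits leave 1 array in a group, so their p-values, here and elsewhere, rest on the spread of the other groups. The asp-1 call was lost without mlk-1 fed 1 (adjusted p = 0.0551), mlk-1 fed 2 (0.126), mlk-1 fasted 1 (0.133) or mlk-1 fasted 2 (0.121). That of asp-3 was lost without mlk-1 fed 1 (0.0586), mlk-1 fed 2 (0.110) or mlk-1 fasted 1 (0.128), and that of asp-17 without mlk-1 fed 2 (0.0565), mlk-1 fasted 1 (0.0862) or mlk-1 fasted 2 (0.0552).

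**Figure D2:**
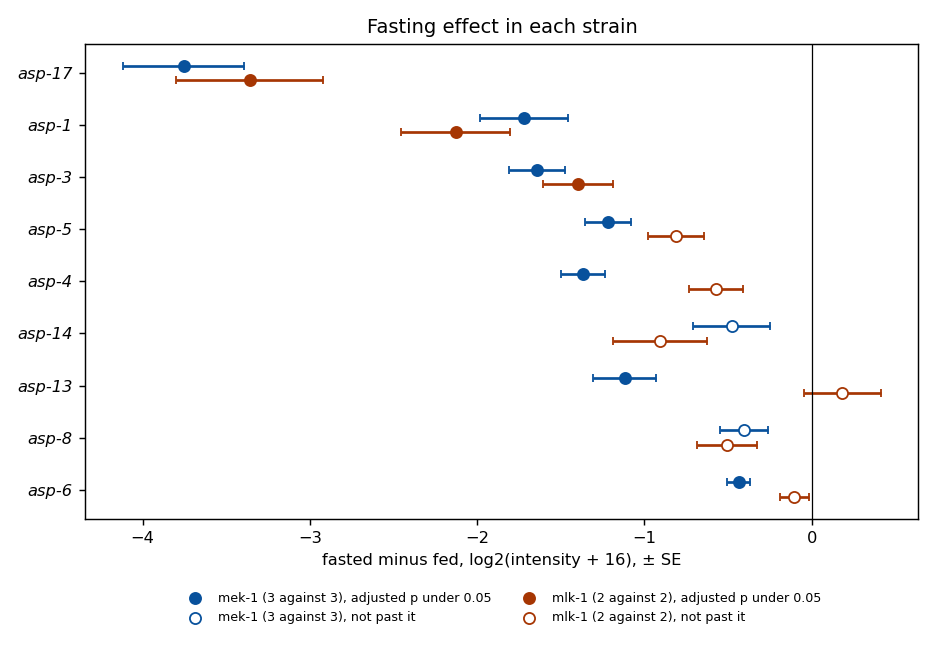
Fasted minus fed differences of log2(intensity + 16) with their standard errors in mek-1 (3 against 3 arrays) and mlk-1 (2 against 2 arrays); filled points passed an adjusted p of 0.05. The values of asp-17 are -3.76 and -3.36, and those of asp-13 are -1.12 in mek-1 and 0.18 in mlk-1.

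For asp-4, asp-5 and asp-6 the value was further from 0 in mek-1 than in mlk-1. For asp-4 the change was -1.37 ± 0.13 in mek-1 (adjusted p = 6.8e-04) and -0.57 ± 0.16 in mlk-1 (adjusted p = 0.168). For asp-5 it was -1.22 ± 0.14 (adjusted p = 0.00149) and -0.81 ± 0.17 (adjusted p = 0.0622), and the other asp-5 probe set passed in mlk-1 as well (-0.90 ± 0.18, adjusted p = 0.0494). For asp-6 it was -0.44 ± 0.07 (adjusted p = 0.00992) and -0.10 ± 0.09 (adjusted p = 0.745). The other asp-6 probe set did not pass in mek-1 (-0.27 ± 0.08, adjusted p = 0.100) or in mlk-1 (0.04 ± 0.10, adjusted p = 0.951), so the count of 7 in mek-1 rests on the leading one for this gene. The mek-1 call of asp-6 was lost without mek-1 fasted 1 (adjusted p = 0.0524).

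Of the 9 genes asp-13 had the difference between strains furthest from 0. Its intensity was 792, 707 and 1004 in mek-1 fed and 282, 439 and 414 in mek-1 fasted animals, a change of -1.12 ± 0.19 (adjusted p = 0.0122). In mlk-1 animals it was 960 and 1090 fed and 1028 and 1314 fasted, overlapping groups with a change of 0.18 ± 0.23 (adjusted p = 0.861). The difference between these effects was -1.30 ± 0.30, with a 95% interval of -1.97 to -0.63 (adjusted p = 0.514, limma). The differences of asp-4 (-0.79 ± 0.21) and asp-6 (-0.33 ± 0.11) were the other members under the threshold before adjustment. No member passed after adjustment (0 of 9, with 3 of 9 before it), and 0.0754% of all probe sets passed. A difference between strains in the fasting effect of these genes was therefore not shown.

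With the array number as a block within strain, 8 of 9 genes fell in mek-1 (6.75% of all probe sets in that fit), asp-8 being the addition (adjusted p = 0.0239). In mlk-1 7 did (2.55% of all probe sets), the additions being asp-4 (adjusted p = 0.0242), asp-5 (0.00529), asp-8 (0.0401) and asp-14 (0.0452). Arrays of the same number deviated together in mek-1, whereas 2 pairs cannot show this for mlk-1. The plot of fasting effects by array number shows the pairwise values. In it mek-1 number 3 had both the largest fall of asp-17 (-4.46, against -3.48 and -3.32) and the smallest of asp-1 (-0.95, against -1.81 and -2.40).

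**Figure D3:**
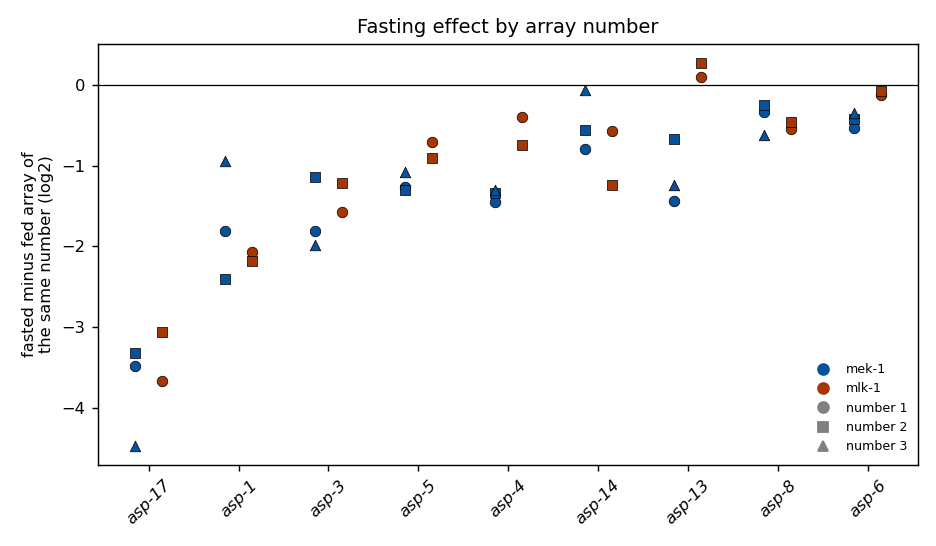
Difference (log2) between the fasted and the fed array of the same strain and number, by gene; colours give the strain and shapes the number. For asp-13 the 3 mek-1 values lie between -1.44 and -0.67 and the 2 mlk-1 values at 0.10 and 0.27.

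The last question was whether the strains differed at a given food state. In fed animals 0 of the 9 genes differed at an adjusted p under 0.05 in limma (4 of 9 before adjustment), and 0.603% of all probe sets did. The median of the 9 fed differences was -0.30, with 7 of them negative, beside -0.002 over all probe sets. Whether the strain difference changed with food is the same test as above, which 0 of 9 passed. A strain difference limited to fasted animals was therefore not shown. In fasted animals 4 genes were lower in mek-1 than in mlk-1 and 0 were higher, while 1.31% of all probe sets were lower and 0.155% higher. The 4 were asp-13 (-1.60 ± 0.21, adjusted p = 0.0111), asp-5 (-0.88 ± 0.15, adjusted p = 0.0308), asp-4 (-0.85 ± 0.15, adjusted p = 0.0314) and asp-6 (-0.59 ± 0.08, adjusted p = 0.0119). For asp-3 the value was -0.79 ± 0.19 (adjusted p = 0.0990). The members with the largest falls on fasting did not pass, with 0.25 ± 0.40 for asp-17 and 0.04 ± 0.30 for asp-1. Fasted groups did not overlap for 7 genes, 6 with mek-1 below (16.8% of probe sets) and asp-8 with mek-1 above (12.7% of probe sets).

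These 4 differences rested on few arrays. The asp-13 call was lost without mlk-1 fasted 1 (adjusted p = 0.0585) or mlk-1 fasted 2 (0.135), and that of asp-6 also without mek-1 fasted 1 (0.0534), besides mlk-1 fasted 1 (0.0637) and mlk-1 fasted 2 (0.138). The asp-4 call was lost without mek-1 fed 2 (0.0519), mek-1 fasted 1 (0.0817), mek-1 fasted 2 (0.0762), mek-1 fasted 3 (0.0992), mlk-1 fasted 1 (0.189) or mlk-1 fasted 2 (0.222). The asp-5 call was lost without any of these (0.0513, 0.0534, 0.0858, 0.102, 0.198 and 0.203 in the same order) and without either mlk-1 fed array (0.0525 each). The asp-3 value passed without mek-1 fasted 2 (0.0414).

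**Figure D4:**
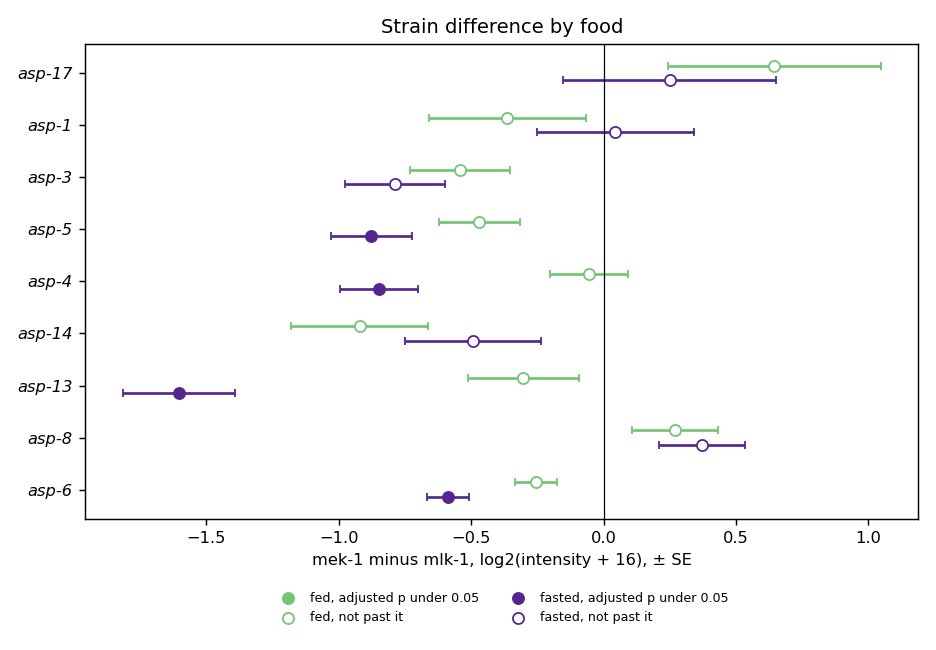
Difference mek-1 minus mlk-1 of log2(intensity + 16) with its standard error in fed (green) and fasted (purple) animals; filled points passed an adjusted p of 0.05. All filled points belong to fasted animals, for asp-13, asp-5, asp-4 and asp-6.

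Averaged over food, asp-13 (-0.95 ± 0.15, adjusted p = 0.0106), asp-5 (-0.67 ± 0.11, adjusted p = 0.0121), asp-6 (-0.42 ± 0.06, adjusted p = 0.00499) and asp-3 (-0.66 ± 0.13, adjusted p = 0.0346) were lower in mek-1, as were 2.44% of all probe sets. The main fit counted each array as independent, although in mek-1 the numbers pair fed with fasted arrays. Its standard errors over food may therefore be too small. The block within strain was not applied to the comparison over food, and the shared block assumes that a number means the same in both strains. The strain difference over food was thus not tested with pairs as units. The asp-6 call was kept under all 21 alternatives. That of asp-13 was lost without mlk-1 fed 2 (0.0584) or mlk-1 fasted 2 (0.0631), and that of asp-5 without mlk-1 fed 2 (0.0638), mlk-1 fasted 1 (0.0602) or mlk-1 fasted 2 (0.0568). The asp-3 call was lost without mek-1 fed 1 (0.0537), mek-1 fed 2 (0.0666), mek-1 fasted 1 (0.0927), mek-1 fasted 3 (0.0510), mlk-1 fed 1 (0.103), mlk-1 fed 2 (0.126), mlk-1 fasted 1 (0.0515) or mlk-1 fasted 2 (0.156). For asp-17 the value was 0.45 ± 0.28 (adjusted p = 0.586), and it passed, with mek-1 higher, without mek-1 fasted 3 (0.69, adjusted p = 0.0355), without both mek-1 arrays numbered 3 (0.76, adjusted p = 0.0121) and with the number shared by both strains as a block (0.76, adjusted p = 0.0456). For asp-4 the value was -0.45 ± 0.11 (adjusted p = 0.0596), passing without mek-1 fed 1 (0.0388), with that block (0.0495), with trended variance (0.0301) and after quantile normalization (0.0214). For asp-14 it was -0.71 ± 0.18 (adjusted p = 0.0867), passing without mlk-1 fed 1 (0.0289), with the block (0.0487), with trended variance (0.0482) and with array weights (0.0381).

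Members also differed in how they varied within groups. After each group's mean was removed, the 10 deviations of asp-4 and asp-5 had a Pearson correlation of 0.884, those of asp-1 and asp-3 of -0.731 and those of asp-1 and asp-17 of -0.682. These describe 10 arrays that share their libraries. Likeness over all 10 arrays was measured as the root mean square difference of log2 values, each gene centred on its own mean, among 17118 genes. The gene most like asp-5 was asp-4, at 0.159. The genes most like asp-17 were spp-4, a saposin-like protein (0.402), C23H5.8 (0.448) and F28H7.3 (0.452). Those most like asp-1 were gda-1 (0.248), W02B12.1 (0.314) and the lysozyme lys-8 (0.326), and those most like asp-3 were C24B9.3 (0.172) and the C-type lectins clec-150 (0.228) and clec-62 (0.253). The member most like asp-17 was asp-1, at 1.13.

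Probe sets were also found for 6 other family genes. Among them asp-7 (39.9 to 49.5), asp-15 and asp-19 (16.4 to 25.8) lay near the floor on all 10 arrays, which leaves little room for a fall. The count below is therefore not comparable with that of the 9 members. Of these 6, asp-12 fell (-0.87 ± 0.08, adjusted p = 4.8e-04) and 0 rose, beside 3.80% and 4.10% of all probe sets. It lies between asp-6 and asp-5 and read 579, 477 and 571 in mek-1 fed, 229, 213 and 238 in mek-1 fasted, 668 and 747 in mlk-1 fed and 435 and 526 in mlk-1 fasted animals. Like asp-13 it was lower in fasted mek-1 than in fasted mlk-1 animals (-1.03 ± 0.12, adjusted p = 0.00664), which did not hold when mlk-1 fasted 2 was dropped (adjusted p = 0.0850). The adjoining asp-11, a pseudogene, read 34.7, 34.8 and 31.5 in mek-1 fed and 68.6, 47.3 and 78.5 in mek-1 fasted animals, against 22.1 to 28.7 in mlk-1. Its change in mek-1 was 0.68 ± 0.14 (adjusted p = 0.0251), and 9 of 24 alternatives lost that call, with an adjusted p of up to 0.111 (without mek-1 fasted 1). It was named after its values were seen. In this row of 4 neighbours the mean fasting effects were thus -0.27, -0.87, -1.01 and 0.41. The 0.41 of asp-11 was not called in the main fit but passed under 11 of 23 alternatives, among them median centring and both blocks. Among fasted animals asp-11 was higher in mek-1 than in mlk-1 (0.48 to 1.17 over the alternatives), a call that 11 of 23 alternatives lost. The other row on chromosome V runs asp-17, asp-16, asp-15 and asp-1, with 1 further gene before asp-1. There asp-15 read 16.9 to 23.8 on the 10 arrays, near the floor, while asp-17 and asp-1 fell.

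Other proteases, vacuolar ATPase subunits, parts of the lysosome and intestinal regulators were counted in lists taken by name. These lists overlap the intestine markers below, which include vha-6, cpr-6, elt-2 and elt-7, so the fall of vha-6 enters 2 counts. Over all probe sets 3.80% fell and 4.10% rose in the main fit. With the block within strain 4502 of 22548 probe sets were called, 1660 of them lower. With the shared block 4426 were called, 1624 of them lower, and without mek-1 fed 3 1988 were, 1045 of them lower. Among 18 cathepsin B, L, Z and A type proteases, cpr-2, named after its values were seen, had a value of 2.07 ± 0.54 (adjusted p = 0.0523). In this list 1 gene rose under 9 of the alternatives, among them both blocks and the fit without mek-1 fasted 3. In the main fit 0 of the 18 rose and 10 fell, with a list median of -0.95. They include the carboxypeptidase ctsa-1.2 (-4.65 ± 0.13, adjusted p = 5.5e-07), cpr-9 (-2.40 ± 0.36, adjusted p = 0.00479) and cpr-1 (-2.09 ± 0.36, adjusted p = 0.0102), the last not passing once mlk-1 fasted 1 was dropped (adjusted p = 0.0513). Of 10 calpains, a family of which some members act with ASP-3 and ASP-4 in dying neurons, 0 passed in limma and the median was 0.11. Under some alternatives 2 rose, among them without mek-1 fed 3 and with either block. Of 19 vacuolar ATPase subunits, not all of which serve lysosomes, vha-6 (-1.23 ± 0.11, adjusted p = 2.5e-04) and vha-12 (-0.51 ± 0.10, adjusted p = 0.0165) fell, and the median was -0.05. Dropping mlk-1 fasted 1 left vha-12 uncalled (adjusted p = 0.0741). Of 10 genes of lysosomal membrane and biogenesis, the membrane glycoprotein lmp-1 rose (0.50 ± 0.08, adjusted p = 0.00522) and lmp-2 fell (-0.77 ± 0.09, adjusted p = 0.00153). The number that rose was 2 without mek-1 fed 3, mek-1 fasted 2 or mek-1 fasted 3, and 4 with either block. Of 6 regulators of intestinal genes, 0 passed, the median being 0.07. The median over all genes was 0.04.

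**Figure D5:**
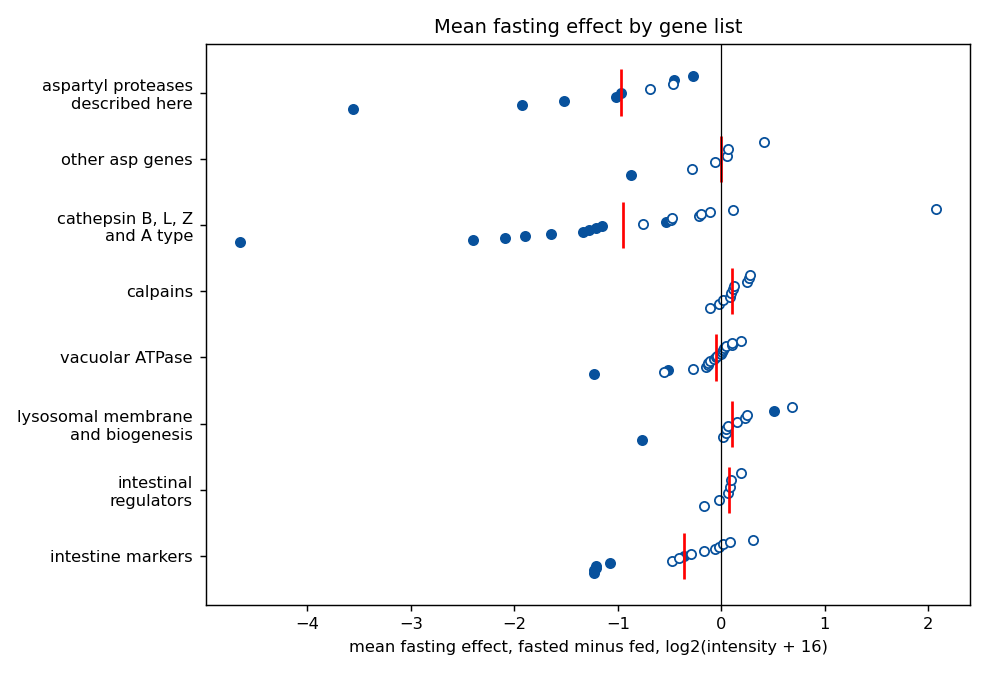
Mean fasting effect (log2) of each gene in 8 lists, 1 probe set per gene; filled points passed an adjusted p of 0.05 and red lines are list medians. The medians of the members (-0.97) and of the cathepsin B, L, Z and A type proteases (-0.95) stand beside 0.11 for the calpains and -0.05 for the vacuolar ATPase subunits.

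In whole-animal RNA fewer intestinal cells and less RNA per cell cannot be told apart. Of 15 intestine markers, 6 fell and 0 rose with fasting, with a median of -0.36, while 3.80% of all probe sets fell and 4.10% rose. Their summed intensity was 14426 to 19237 in mek-1 fed, 10409 to 11343 in mek-1 fasted, 15958 to 18072 in mlk-1 fed and 11424 to 11745 in mlk-1 fasted animals, and every marker lay above the floor. Among them act-5, the actin of intestinal microvilli, fell (-1.23 ± 0.22, adjusted p = 0.0128), but not once mlk-1 fasted 1 was dropped (adjusted p = 0.0612). The P-glycoprotein pgp-1 also fell (-1.21 ± 0.15, adjusted p = 0.00197). The gut regulators elt-2 (-0.17 ± 0.12, adjusted p = 0.512) and elt-7 (0.08 ± 0.09, adjusted p = 0.672) did not pass. Markers of body wall muscle also moved, 3 of 8 falling, with summed intensities of 3422 to 9131 in mek-1 fed and 1790 to 3001 in mek-1 fasted animals. In mlk-1 the sums were 2513 to 2743 fed and 1738 to 1951 fasted. By strain 4 of the 8 fell in mek-1 and 0 in mlk-1 (3.23% and 0.852% of all probe sets). Of 6 hypodermis markers 1 fell (list median -1.04), of 9 pharynx markers 1 fell (-0.12), and of 8 neuron markers 2 rose (0.07). Of 10 germline, 5 sperm and 3 coelomocyte markers 0 passed in limma. The actin control probes, a sign of RNA quality, had a log2 3'/5' ratio of 1.05 to 1.44 in mek-1 fed, 1.5 to 1.77 in mek-1 fasted, 1.45 to 1.55 in mlk-1 fed and 1.38 to 1.68 in mlk-1 fasted arrays. For the Ubiquitin control these were 0.808 to 0.954, 0.652 to 0.746, 0.812 to 0.850 and 0.796 to 0.906, lower in fasted mek-1 arrays, and for Gapdh 0.753 to 0.945, 0.817 to 1.12, 0.964 to 1.07 and 0.858 to 0.948. Between strains, 2 of 15 intestine markers were lower in fasted mek-1 animals and 0 higher (list median -0.16), beside 1.31% and 0.155% of all probe sets. In fed animals 0 were lower in mek-1 and 1 higher (0.14), while 136 of 22548 probe sets were called, 106 of them lower. Averaged over food 0 were lower and 2 higher (-0.03), while 687 of 22548 were called, 551 of them lower. The muscle list had medians of 0.34 in fasted and 1.13 in fed animals with 0 of 8 called in limma. The part of these differences in the falls of the aspartyl proteases was not tested.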

How the data were processed

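RNA of 10 samples was read on 1-colour arrays. The deposited values are linear intensity, 1 per probe set, with a floor just above 16. The sources used here do not state how the authors summarised and normalised them, and the array number limits the precision. Every one of the 10 columns matched 1 sample. Probe sets were named from the platform annotation, which can be old: 20766 had 1 symbol, 887 several and 895 none, and 77 controls were left out. Of several probe sets of a gene, the one with the highest mean leads, and the others are given where a call differs in the fasting effects.

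From the deposited intensity, log2(intensity + 16) was fitted with 4 group means in limma 3.58.1 (R 4.3.3; lmFit and eBayes), with Benjamini-Hochberg adjustment over 22548 probe sets. The test was also run on simulated data with independent noise between arrays and with changes placed only well above the floor. That setting covers neither the pairing of array numbers nor low probe sets such as asp-8, and nothing is concluded from it here. Sensitivity to constants, scaling, filters, variance models, blocks and single arrays was examined. All members were described; genes outside them were named as the largest changes past the threshold in each list and the nearest in likeness. The members and lists were chosen with earlier results of these data known.

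Replicate numbers come from the labels. Deviations of same-numbered fed and fasted arrays correlated at 0.440, 0.675 and 0.573 in mek-1, so the numbers pair these arrays. In mlk-1, 2 pairs (0.352) cannot show it.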

Additional observations from a re-analysis of the deposited data

Results flagged for a closer look

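The same-numbered pairs of asp-13 lay on opposite sides of 0 in the strains. Each of the 3 same-numbered mek-1 pairs was lower after fasting (-1.44, -0.67 and -1.25, log2), and both mlk-1 pairs were higher (0.10 and 0.27). The difference between the effects was -1.30, and its test did not pass after adjustment (adjusted p = 0.514, limma). Over the alternatives it ranged from -1.48 to -1.11, with adjusted p-values from 0.0712 to 1.00. The cause was not tested.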

How the results depend on the processing

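No value past the threshold changed sign. Of 1948 single-gene values under alternatives, 13 changed sign, all uncalled in both fits. Counting uncalled values within 1 SE as unmoved whatever their sign, 1761 stayed as they were, 59 newly passed, 93 no longer passed and 35 moved by more than 1 SE. With probe sets ending in _s_at or _x_at left out, the leading probe sets of 4 members remained, namely asp-1, asp-3, asp-8 and asp-17. Of these, 4 fell in the mean (539 of 15837 probe sets did) and 3 in mek-1 (436). Over food 1 was lower in mek-1 (377), and among fasted animals 0 were (208). The leading probe sets of asp-13, asp-5, asp-4 and asp-6, the members called lower in fasted mek-1 animals, all end in _s_at. They were left out and so not tested under this filter. The other asp-5 probe set does not end so, but it was not followed under this filter. It read 1280 to 1724 in fasted mek-1 and 3062 to 3146 in fasted mlk-1 animals. In the main fit 7 of the 12 member probe sets were lower in fasted mek-1 animals, beside 1.31% of all. Leaving out 1 array at a time gave 5 to 8 falling members in the mean, 6 to 8 in mek-1, 0 to 4 in mlk-1, 1 to 4 lower in mek-1 over food, 0 to 1 higher there, and 0 to 4 lower in fasted animals. Fewer arrays were then fitted. Members higher in mek-1 over food numbered 1 with the shared replicate block and 1 without both mek-1 arrays numbered 3, the latter chosen after seeing the data. Of all 22548 probe sets 1503 were called with that block, 824 of them lower, and 745 without those arrays, 485 of them lower.

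With the replicate number as a block, either within strain or shared by strains, 9 members fell in the mean, 8 in mek-1 and 7 in mlk-1, and the difference between strains had 0 calls. Calls over all probe sets also increased, from 1781 to 4502 in the mean, 1023 to 3272 in mek-1 and 309 to 1316 in mlk-1 with the block within strain. The depth of an array is limited by its floor, near which asp-7, asp-8, asp-15 and asp-19 lay.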
